A study of Arabidopsis thaliana with 18 samples.

Results

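The genes described here were read in the Arabidopsis thaliana accession C24 and nearly unread in the accession Ler. A gene was a member if its counts summed to at least 60 over the 3 C24 libraries and to at most 3 over the 3 Ler libraries. Of 37336 gene rows, 187 were members, after 4 genes named beforehand were left out, 1 of which met the limits. They made up 1.02% of the 18399 genes with at least 60 C24 reads. The members were thus chosen by their C24 and Ler counts, so the difference between those groups is a description and was not tested.

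RNA was sequenced from whole rosettes 21 days after sowing, each library being a pool of 6 to 10 plants. The first sequencing stage held 3 libraries each of wild-type C24, wild-type Ler, the wild-type hybrid C24 x Ler, and Ler carrying the NahG transgene (Ler NahG). A later stage held 2 libraries each of a second set of wild-type C24 (C24B) and of the independent transgenic lines C24 NahG 2 and C24 NahG 3, both in the C24 background. The promoter that drives NahG is not given in the sources used here, and each C24 line is a single transgenic line.

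NahG encodes a bacterial salicylate hydroxylase, which turns the defence hormone salicylic acid into catechol. Salicylic acid acts through the coactivator NPR1 and TGA factors to raise WRKY transcription factors, receptor kinases and pathogenesis-related proteins, and it also promotes leaf ageing. Accessions often differ in the presence or sequence of immune receptor, F-box and repeat-derived genes, so a gene read in one accession can be missing, silent or too diverged to map in another. A gene transcribed only from the C24 copies, at an unchanged rate per copy, would be read in an F1 hybrid at 50% of the C24 level.

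Depth in gene reads ran from 22446656 to 25706088 per first-stage library and from 28132721 to 32465711 per later one. Leaf marker genes were abundant in every library. The shoot-apex gene STM stood at 22.7 to 25.3 CPM (reads scaled to a common library size) in C24 but at 0.102 to 0.705 in the hybrid, and at 0.467 in C24B replicate 1 against 21.9 in replicate 2 and 22.6 to 39.8 in the C24 NahG lines. WUS, the other shoot-apex gene of the list, had at most 1 read in each of these libraries. The flower genes AP3, PI and AG, all 3 of their list, summed to 37.5 to 68.4 CPM in Ler and 23.01 to 49.1 in Ler NahG, against 0.811 to 3.13 in C24, 2.12 to 2.78 in the hybrid, 0.545 to 0.957 in C24B and 0.677 to 3.69 in the C24 NahG lines. Root hair markers summed to at most 1.90 CPM and seed markers to at most 0.355 in any library. The salicylic acid marker PR1 stood at 2369 to 2870 CPM in C24, 738.4 to 1091 in C24B, 4.83 to 10.2 in the hybrid, 3.26 to 28.4 in Ler, 0.989 to 1.77 in Ler NahG and 0.308 to 0.522 in the C24 NahG lines. PR1 moved with the groups compared below and also with the accessions that chose the members. STM was low in the hybrid and in C24B replicate 1, but not in C24B replicate 2. The flower genes moved with the accessions that chose the members. The part of these genes in the members' levels was not tested. In bulk rosettes, fewer cells of a type and less RNA per cell cannot be told apart.

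Promoters of 5 members are shown to give the reader the sequence beside the values that follow. They were picked after the values were seen: WRKY62, CRK4, ALD1 and FH19 lost most of their reads in the NahG lines, and AT3G43740 did not. Each is the 250 bases before the annotated start in the TAIR10.1 reference, which is Columbia sequence and not that of C24 or Ler, written 5′ to 3′ on the gene's strand. Capitals mark TTGAC, the core of the W-box bound by WRKY factors, or its reverse complement. The regions are chr5:352096-352345 (minus strand) for WRKY62, chr3:16866262-16866511 (minus) for CRK4, chr2:5768167-5768416 (plus) for ALD1, chr5:2479264-2479513 (plus) for FH19 and chr3:15643759-15644008 (plus) for AT3G43740.
WRKY62: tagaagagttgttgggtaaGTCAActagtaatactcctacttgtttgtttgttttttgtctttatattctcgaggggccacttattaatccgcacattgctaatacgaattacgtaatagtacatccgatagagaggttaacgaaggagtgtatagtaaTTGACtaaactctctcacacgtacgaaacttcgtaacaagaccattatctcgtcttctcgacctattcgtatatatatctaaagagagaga
CRK4: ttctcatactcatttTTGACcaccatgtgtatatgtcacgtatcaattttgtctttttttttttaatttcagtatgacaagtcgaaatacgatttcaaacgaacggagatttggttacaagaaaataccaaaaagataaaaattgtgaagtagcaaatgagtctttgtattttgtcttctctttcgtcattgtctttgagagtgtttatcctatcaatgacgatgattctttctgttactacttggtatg
ALD1: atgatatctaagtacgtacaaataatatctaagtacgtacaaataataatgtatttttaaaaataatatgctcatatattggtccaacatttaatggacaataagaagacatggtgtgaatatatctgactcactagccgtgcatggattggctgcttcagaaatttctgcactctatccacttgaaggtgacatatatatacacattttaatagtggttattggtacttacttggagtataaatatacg
FH19: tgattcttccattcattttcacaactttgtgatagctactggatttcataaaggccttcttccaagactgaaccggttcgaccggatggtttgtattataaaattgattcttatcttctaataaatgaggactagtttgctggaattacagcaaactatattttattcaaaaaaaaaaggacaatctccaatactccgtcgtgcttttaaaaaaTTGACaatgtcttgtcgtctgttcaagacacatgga
AT3G43740: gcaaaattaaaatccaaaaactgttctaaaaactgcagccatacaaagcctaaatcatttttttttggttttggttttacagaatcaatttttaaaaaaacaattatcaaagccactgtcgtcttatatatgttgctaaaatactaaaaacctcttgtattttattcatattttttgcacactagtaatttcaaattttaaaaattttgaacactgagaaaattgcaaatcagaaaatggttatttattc
ALD1 and AT3G43740 held no TTGAC in this window, CRK4 and FH19 held 1 and WRKY62 held 2. Both strands were searched, and the motif shares its letters TGAC with the TGA-factor core TGACG, which was searched in the same way. CRK4 held 2 TGACG, which are not marked, and WRKY62, ALD1, FH19 and AT3G43740 held 0.

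By annotation the members were 125 protein-coding genes, 42 pseudogenes, 19 RNA genes and 1 mitochondrial row with no entry, ATMG01170. Pseudogenes made up 22.5% of members against 0.951% of all genes with at least 60 C24 reads, and RNA genes 10.2% against 1.09%. Protein-coding genes made up 66.8% against 97.7%. By product name there were 6 NLR immune receptors (3.21% against 0.717%), the intracellular sensors of pathogen effectors, and 8 F-box proteins (4.28% against 0.832%), the substrate-binding parts of ubiquitin ligases. Keywords for receptor kinases, receptor-like proteins and lectins matched 9 members, 7 kinases or receptor-like proteins and the mannose-binding lectin genes AT1G52100 and AT5G38550, at a share (4.81%) close to that of all genes with as many C24 reads (4.03%). A further 33 members were protein-coding genes of unknown function, and 31 members had a gene symbol of their own. These shares are descriptions of a chosen list.

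The members were spread over all chromosomes, with 50 on chromosome 1, 29 on 2, 31 on 3, 32 on 4 and 44 on 5. Only 12 stood directly beside another member, in 5 runs of at most 3. Of the 151 flanking genes with at least 60 C24 reads, 138 (91.4%) also had at least 60 Ler reads, against 96.0% of all such genes that were not members. One run lay beside WRKY38: AT5G22550, AT5G22555 and AT5G22560 had 76, 152 and 75 reads over the C24 libraries and 1, 0 and 2 over Ler. WRKY38 itself, a transcription factor that acts in defence, had 4088 C24 reads and 44 Ler reads, too many for membership. AT5G22545, on the other side of the run, had 697 and 18. Annotated positions of 21 members overlapped another gene, 19 of them on the opposite strand. Without a stated strand setting, reads of such pairs cannot be told apart.

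Most members were low. Their reads summed over the C24 libraries ran from 60 to 7916 with a median of 146, and 112 members had fewer than 200. The most abundant was CRK4, a cysteine-rich receptor-like kinase of the cell surface, at 106, 108 and 95.9 CPM in the C24 libraries and 0.0894, 0 and 0 in Ler. The next were the pseudogene AT1G47950 (2454 C24 reads), the leucine-rich repeat gene AT3G43740 (2420), the gene of unknown function AT4G07965 (2041) and SADHU3-2 (1905), a member of the Sadhu family of non-coding retrotransposons. No Ler read at all was counted for 74 members, while 51 had 1 read, 42 had 2 and 20 had 3. M17, which encodes a late embryogenesis abundant protein, owed its membership to 1 library, C24 replicate 1 (4.44 CPM against 0.0392 and 0), and it was the only member with more than 75% of its C24 level in 1 library.

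At the limits, AT1G43387, WRKY59 and AT2G33175 had 60 C24 reads and were inside, while AT1G32225, AT4G29370 and SBT4.12 had 59 and were outside. Among genes with 4 Ler reads, just outside, were AT3G28510 with 4340 C24 reads, AT1G14250 with 3943 and AT3G61010 with 3162.

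In the C24 x Ler hybrid the members were read at a median of 33.7% of their C24 level (quartiles 5.83% and 48.7%). The values ran from 0 to 135.9% and did not gather around one level. There were 57 members under 10%, 25 from 10 to 25%, 94 from 25 to 75% and 11 above. Over the 3 hybrid libraries the medians were 28.3, 27.6 and 31.9%. In edgeR's quasi-likelihood test 146 of 185 members tested fell in the hybrid against C24 and 0 rose, at an adjusted p under 0.05 over all genes. Of all 20325 genes tested, 19.3% were called lower and 17.2% higher. The C24 libraries also chose the members, so their count is a description, and the C24 level that sets these percentages may be raised by the choice. DESeq2 called 138 of the same 146 members lower. The median log2 difference was -1.52 over the members and -0.04 over all genes tested.

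By kind of gene, pseudogenes had a median of 41.5% of C24, with 33 of 42 between 25 and 75%, and RNA genes a median of 38.0%, with 17 of 19 in that range. Protein-coding members had a median of 13.2%, and 55 of 125 lay under 10%. These medians differed with the call in the C24 NahG lines, described below. Among members with no call they were 43.45% for protein-coding genes, 47.15% for pseudogenes and 41.53% for RNA genes. Among members lower in both lines together they were 4.775, 29.37 and 31.35%, over 37, 7 and 3 members. The fitted 95% interval of the hybrid level held 50% of C24 for 92 members, lay wholly below it for 85 and wholly above it for 8. It held 100% for 22. Intervals of members with few hybrid reads rest on a prior count and are wide.

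**Figure D1:**
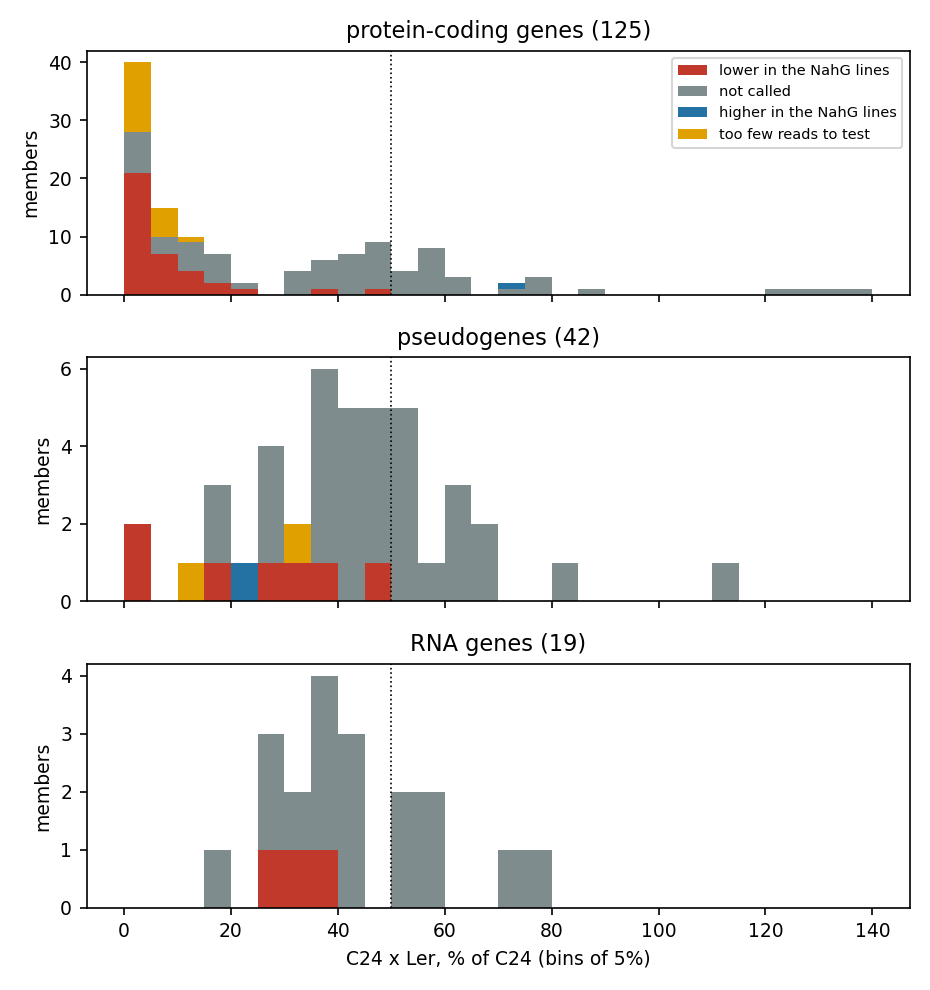
Number of members (vertical axis) by their mean level in C24 x Ler as a percent of C24 (horizontal axis, bins of 5%), for protein-coding genes, pseudogenes and RNA genes. Colours give the call of both C24 NahG lines together against C24B and the dotted line marks 50%; 55 of 125 protein-coding members lay under 10%, while most pseudogenes and RNA genes lay between 25 and 75%.

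The highest hybrid levels among members with at least 200 C24 reads were those of the phosphodiesterase-like gene AT4G34930 at 88.3% of C24 (95% interval 65.2 to 120%) and the pseudogene AT1G47520 at 81.4% (58.6 to 113%). AT4G34930 stood at 5.84, 6.74 and 6.44 CPM in C24 and at 6.18, 5.12 and 5.50 in the hybrid, so that the groups overlapped. AT4G11373, a kinase-domain gene, AT1G11150 and AT1G47565 followed at 73.2, 65.1 and 64.7%. The 75 members with at least 200 C24 reads had a median of 42.3% (quartiles 14.8 and 52.4%), and 51 of them lay between 25 and 75%. AT4G07965 and AT1G07323 are examples near 50%. AT4G07965 was read at 26.8, 27.9 and 25.2 CPM in C24 and 12.8, 14.3 and 13.3 in the hybrid, or 50.6% (41.1 to 62.3%). The long non-coding RNA AT1G07323 stood at 16.3, 17.8 and 17.8 CPM in C24 and 8.78, 9.21 and 8.13 in the hybrid, or 50.3% (40.0 to 63.3%). In both genes every hybrid library lay below every C24 library.

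At the other end 9 members had 0 reads over the 3 hybrid libraries and 26 had 1 to 3. GLIP1, a secreted lipase that acts in ethylene-linked immunity, was read at 3.80, 3.21 and 1.94 CPM in C24 and at 0 in each hybrid library, which was at least 59.9-fold lower with the hybrid group taken at 3 counts, the limit that a count of 0 allows. DMP1, a membrane protein linked to the breakdown of membranes in ageing leaves, had 329 C24 reads and 1 hybrid read, a ratio of 263.0 (95% counting interval 46.9 to 10418). AT4G23215, a pseudogene of a cysteine-rich receptor kinase, had 536 and 3 reads, a ratio of 142.8 (48.6 to 694.7). The glycosyl hydrolase gene AT3G47040 had 343 and 3 (91.4, 31.0 to 445.3). WRKY62, a transcription factor that restrains basal defence, stood at 9.04, 8.23 and 7.73 CPM in C24 and at 0.102, 0.195 and 0.047 in the hybrid, 1.38% of C24.

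In C24B, wild-type libraries that the rule did not use, every member was read. The lowest had 5 reads (M17), and 121 had at least 60. The median ratio of C24B to C24 was 0.786 over the members and 0.987 over all genes with at least 60 C24 reads. Within 2-fold of C24 were 132 members, while 49 lay under 50% of it and 6 above 2 times. Stage, set of plants and the choice of the members on their C24 counts cannot be told apart in this ratio. Against C24B instead of C24, with all 18 libraries scaled together, hybrid levels were higher, as given below.

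In the C24 NahG lines some members lost most of their reads, among them CRK4, WRKY62 and ALD1, while AT3G43740, AT4G07965 and most pseudogenes were not called. Against C24B, 47 of the 167 members tested fell in the C24 NahG lines tested jointly (called both lines together below), and 2 rose; of all 20112 genes tested, 10.3% were called lower and 2.85% higher. In C24 NahG 2 alone 30 members fell and 1 rose (7.1% and 1.11% of all genes). In C24 NahG 3 alone 37 fell and 2 rose (8.16% and 2.09%). Both lines were set against the same C24B libraries. The median log2 difference over the members was -0.17 in line 2 and -0.28 in line 3, against 0.00 and -0.01 over all genes. Between the lines edgeR called 0 members and 0.0% of all genes in either direction, with 12 members at an unadjusted p under 0.05, and DESeq2 also called 0.

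With only 2 libraries a group, single-line counts rested on each library. Without C24 NahG 2 replicate 1 or replicate 2 the count of members lower in that line was 10. Without C24 NahG 3 replicate 1 or replicate 2 it was 19 or 10 in line 3. The 47 members lower in both lines together became 31 without C24 NahG 2 replicate 1. Of the 47, 28 fell under every left-out library, and 44 fell by DESeq2. C24B replicate 1, which had little STM, was at or above 50% of replicate 2 in 45 of the 47, with a median ratio of 1.15; the count was 41 without replicate 1 and 48 without replicate 2.

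CRK4 and WRKY62 were among the members that fell most. CRK4 went from 118 and 79.9 CPM in C24B to 1.14 and 1.32 in line 2 and 0.480 and 1.01 in line 3, with every line library below every C24B library. The log2 difference from C24B was -6.32 ± 0.31 (SE) for line 2 and -7.02 ± 0.33 for line 3 (adjusted p = 5.87e-05 and 4.12e-05, edgeR). WRKY62 went from 8.41 and 7.84 CPM to 0.338 and 0.129 in line 2 and 0.0343 and 0.0308 in line 3, log2 differences of -5.09 ± 0.42 and -7.80 ± 0.54. ALD1, the aminotransferase that starts the synthesis of the immune signal pipecolic acid, stood at 8.17 and 3.86 CPM in C24B. It fell to 0.215 and 0.258 in line 2 and to 0.651 and 0.461 in line 3, by log2 differences of -4.64 ± 0.51 and -3.43 ± 0.46. FH19, a formin that nucleates actin filaments, fell from 7.36 and 6.41 CPM to 0.307 and 0.193 in line 2 and 0.308 and 0.185 in line 3. edgeR called all 4 genes in each line and under every left-out library in both lines together.

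In the hybrid the same 4 genes were also low. CRK4 stood at 14.3, 7.41 and 11.3 CPM, 10.7% of C24 (95% interval 7.28 to 15.6%). ALD1 stood at 0.204, 0.390 and 0.235 CPM, 2.86% of the C24 level of 9.26, 11.4 and 8.38 CPM. FH19 stood at 1.33, 0.390 and 0.658 CPM, 5.89% of the C24 level of 12.8, 13.9 and 13.6 CPM. None of the 3 overlapped C24 in any library.

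AGL23, a MADS-box factor known from the female gametophyte, had 5.80 and 2.84 CPM in C24B and 0 reads in both lines, at least 88.4-fold lower in line 2 and 85.8-fold in line 3. edgeR called it in each line, whereas DESeq2 gave adjusted p-values of 0.2252 and 0.1854. AT3G47040 had 1 read in each line, a ratio of 154.9 (27.3 to 6161) in line 2 and 150.3 (26.5 to 5980) in line 3. AT2G44400, a C1-domain gene, had 1 read in line 2 (129.3, 22.7 to 5149) and 0 in line 3, at least 41.8-fold lower. Its call in line 2 was lost without C24 NahG 2 replicate 1 (adjusted p = 0.0666, edgeR). The cation exchanger gene CHX2 went from 0.895 and 0.893 CPM in C24B to a single read in line 2 (ratio 56.8, 9.8 to 2288) and 0 in line 3, at least 18.4-fold lower. CHX2 lost its calls when either library of the line was left out, with adjusted p-values of 0.0620 to 0.1795.

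Among the NLR genes, AT5G47260 stood at 9.07 and 8.48 CPM in C24B and 5.45 to 6.97 in the lines (adjusted p = 0.0729, edgeR, both lines). Its hybrid level was 60.7% of C24. AT5G45240 stood at 16.9% of C24 in the hybrid and had 92 reads in C24B, 60 in line 2 and 61 in line 3 (adjusted p = 0.243, edgeR, both lines). AT1G65850 stood at 13.2% of C24 in the hybrid and at 24.5% of C24B in the lines, with 0.467 and 0.989 CPM in C24B and 0.0923 to 0.274 in the lines, which did not overlap (adjusted p = 0.0664, edgeR, both lines). AT5G18350 had 0 reads in the hybrid and in both lines, and AT1G17615 had 1 read in the hybrid and 1 in the lines, but both were too low in C24B to be tested.

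Of the 7 receptor-like proteins and kinases 4 fell in both lines together: CRK4, CRK12, the leucine-rich repeat kinase AT5G16900 and RLP28. Among all members tested 47 of 167 were called lower, and 10.3% of all genes tested were. The calls of AT5G16900 and RLP28 were not kept under every left-out library. CRK12 went from 6.73 and 4.18 CPM in C24B to 1.04 and 0.903 in line 2 and to 1.27 and 0.308 in line 3. In the hybrid it stood at 16.3% of C24. CRK26 was too low for a test in the lines and stood at 11.0% of C24 in the hybrid. The lectin gene AT1G52100 went the other way, at 2.72 and 4.91 CPM in C24B, 5.59 and 8.19 in line 2 and 8.43 and 14.2 in line 3. It was called higher in line 3 alone, and that call was lost without any 1 of the 4 line libraries (adjusted p 0.0545 to 0.2425, edgeR). In the hybrid AT1G52100 stood at 11.8% of C24.

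Of the 8 F-box genes 7 were tested in the lines and 0 were called, where 10.3% of all genes were called lower. The gene not tested, AT3G17400, had 27 reads in C24B, 1 in line 2 and 0 in line 3. AT5G40050 had 51, 16 and 11, or 22.7% of C24B in the lines (adjusted p = 0.0856, edgeR, both lines). Their hybrid levels had a median of 38.4% of C24 and ran from 8.59% (AT3G17400) to 125.8% (AT3G59250). AT5G56380, the most abundant of them, stood at 12.7, 10.8 and 14.5 CPM in C24, 4.85, 4.14 and 5.64 in the hybrid, 14.2 and 13.5 in C24B and 14.2 to 15.3 in the lines. The hybrid libraries all lay below C24, while the line libraries lay around or above C24B.

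Other members that fell in both lines together included WRKY59, the metacaspase gene MC8, the cytochrome P450 gene CYP705A27, DMP1, NHL25 and BGLU27. CYP705A27 and DMP1 kept the call under every left-out library, while WRKY59, MC8, NHL25 and BGLU27 did not. DMP1 went from 1.40 and 2.74 CPM in C24B to 0.154 and 0.0322 in line 2 and 0.0685 and 0.0615 in line 3. The pair AT5G22540 and AT5G22560, both of the DUF247 family, also fell: AT5G22540 from 4.24 and 3.57 CPM to 0.308 to 0.613, and AT5G22560 from 1.01 and 0.957 to at most 0.0322. Between them AT5G22550 went from 0.623 and 1.28 to 0.0307 to 0.274 without being called (adjusted p = 0.0618, edgeR, both lines). Of the 47 lowered members 37 were protein-coding, 7 were pseudogenes and 3 were RNA genes. The pseudogenes AT4G23215 and AT5G55420 were among them, AT5G55420 at 1.87 and 1.79 CPM in C24B, 0.0614 and 0.0967 in line 2 and 0 in line 3. A run of neighbours on chromosome 1 also fell: AT1G04313, AT1G05035 and AT1G04323 had 43, 102 and 91 reads in C24B, 3, 7 and 2 in line 2 and 3, 1 and 1 in line 3, while the flanking genes AT1G05030 and AT1G05040 had 1392, 899 and 830 reads and 11, 2 and 0.

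Higher in both lines together were AT4G12520 and AT3G50625. AT4G12520, of the lipid-transfer protein family, stood at 0.311 and 0.702 CPM in C24B and 1.72 to 2.22 in the lines, and the pseudogene AT3G50625 at 7.40 and 11.6 and at 15.2 to 17.2. Neither kept the call throughout: the count of members higher was 0 without C24B replicate 1 or without any 1 of the line libraries, and 9 without C24B replicate 2.

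Members that fell in the NahG lines and members that were not called lay apart in the hybrid. The 47 lowered members had a median of 5.31% of C24 in the hybrid, with 30 of them under 10% and 9 above 25%; their median in the lines was 6.27% of C24B. The 118 tested members with no call had a hybrid median of 43.9% (quartiles 30.6 and 57.0%), with 83 between 25 and 75%, and a median of 104.9% of C24B in the lines. In the 3 hybrid libraries the medians were 5.54, 5.24 and 4.89% for the lowered members and 40.0, 42.4 and 46.8% for those with no call. The split was made after the values were seen and has no test. With C24B as the reference the hybrid medians were 9.99% and 48.2%. Among genes that were not members, the 1993 lower in both lines together had a hybrid median of 68.6% of C24. The 16822 with no call had 99.2%. Of genes that were not members and had at least 60 C24 reads, 96.0% also had at least 60 Ler reads. These percentages and those of the members are therefore unlike measures. Across the 187 members the Spearman correlation of hybrid percent with line percent was 0.63; the points share libraries and depth, and it is a description.

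**Figure D2:**
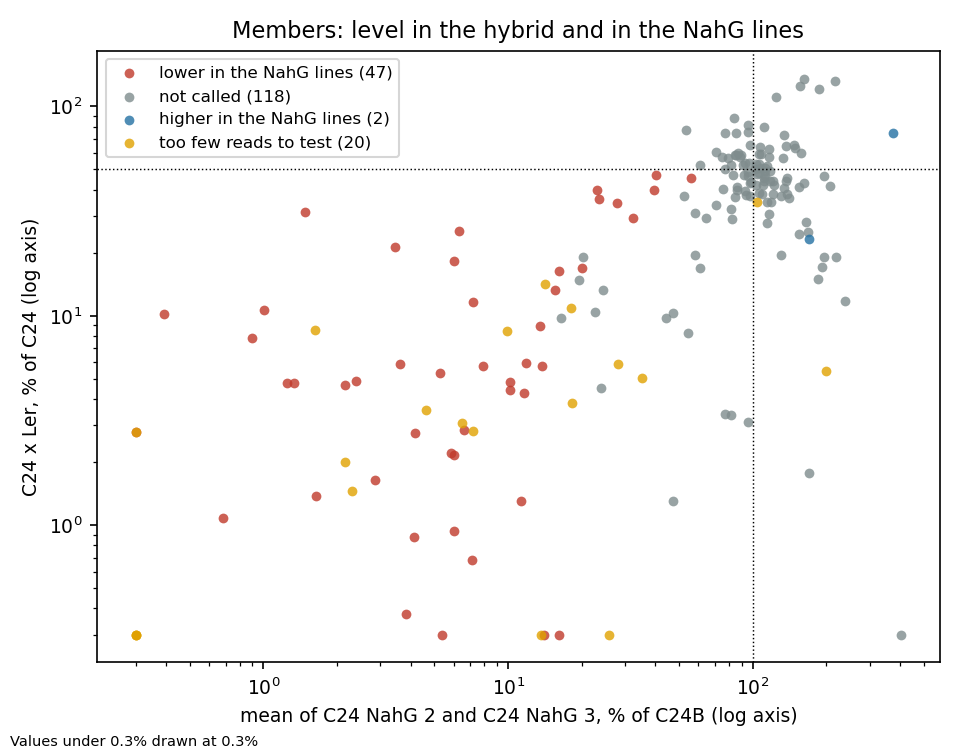
Each point is 1 of the 187 members: mean level in C24 x Ler as a percent of C24 (vertical, log axis) against the mean of both C24 NahG lines as a percent of C24B (horizontal, log axis), coloured by the call of both lines together, with values under 0.3% drawn at 0.3%. Members lower in the lines had a hybrid median of 5.31%. Those with no call had a hybrid median of 43.9% (quartiles 30.6 and 57.0%) and a median of 104.9% of C24B in the lines. Dotted lines mark 50% and 100%.

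The 20 members too low to be tested in the later stage had a hybrid median of 3.31% of C24, and their C24B level was a median of 0.262 of C24. GLIP1 was among them, at 0.234 and 0.128 CPM in C24B against 1.94 to 3.80 in C24. Against C24B these 20 had a hybrid median of 15.8%.

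Exceptions ran in both directions. AT5G26290, of the TRAF-like family, stood at 2.69, 1.72 and 1.11 CPM in C24 and 0.0511, 0 and 0.047 in the hybrid, 1.77% of C24. In the later stage it stood at 1.60 and 2.14 CPM in C24B, 2.27 and 3.38 in line 2 and 4.18 and 2.80 in line 3 (adjusted p = 0.158, edgeR, both lines). FUT6, a fucosyltransferase of cell wall proteins, had 193 C24 reads and 2 in the hybrid, and it stood at 0.389 and 1.05 CPM in C24B and 0.123 to 0.677 in the lines. In all, 10 members with no call in the lines lay under 10% of C24 in the hybrid. A missing call does not show that a level was kept. The 118 members with no call ran from 16.4 to 405.2% of C24B in the lines, and FUT6 was low in C24B. On the other side the pseudogene AT1G47950 fell in both lines together and kept 45.6% in the hybrid. That call was not kept under every left-out library, and in line 2 alone the gene was not called (adjusted p = 0.0821, edgeR). AT1G47950 stood at 70.1 and 42.8 CPM in C24B and 28.6 to 35.0 in the lines.

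**Figure D3:**
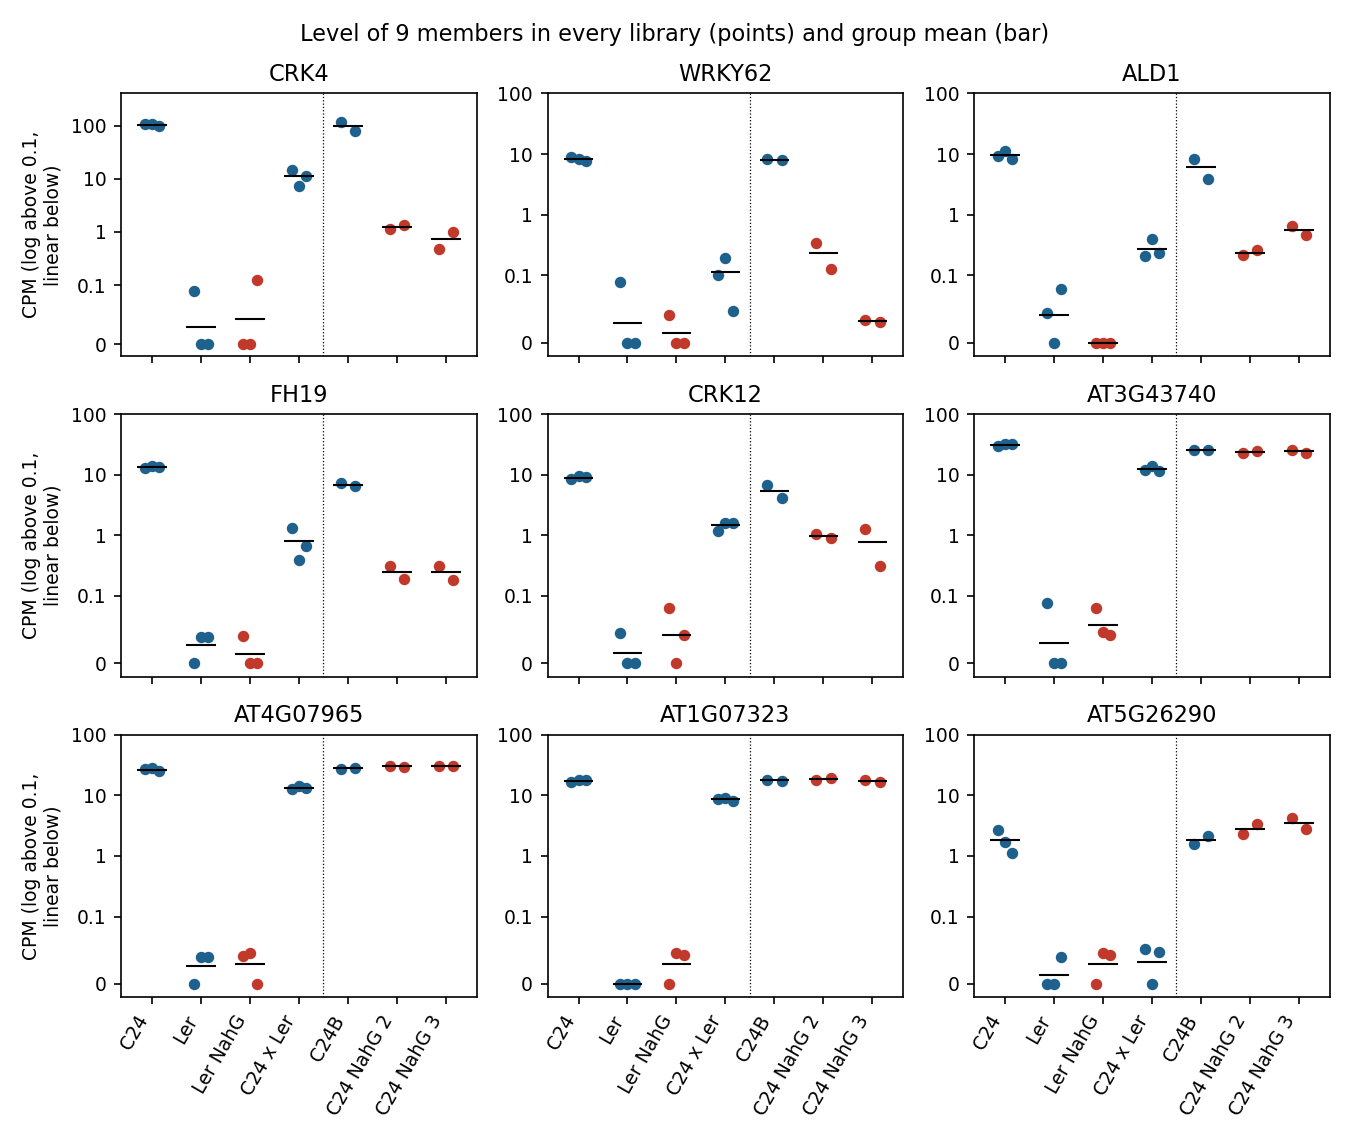
Level of 9 members in every library (points, CPM on an axis that is logarithmic above 0.1 and linear below) with group means (bars), red for groups carrying NahG and the dotted line between the sequencing stages. CRK4, WRKY62, ALD1 and FH19 were low in the hybrid and in the C24 NahG lines, CRK12 stood at 16.1% of C24B in the lines and 16.3% of C24 in the hybrid, AT3G43740, AT4G07965 and AT1G07323 were near C24B in the lines and between 39.6 and 50.6% of C24 in the hybrid, and AT5G26290 was near 0 in the hybrid but not in the lines.

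Members with no call in the lines included most of the abundant ones. AT3G43740 stood at 30.3, 32.4 and 31.8 CPM in C24, 11.998, 13.9 and 11.4 in the hybrid (39.6%, 30.9 to 50.6%), 25.4 and 26.0 in C24B and 22.5 to 26.0 in the lines. Its log2 difference in both lines together was -0.10 ± 0.11. SADHU3-2 stood at 22.3, 24.3 and 27.4 CPM in C24, 7.96, 9.60 and 10.0 in the hybrid (37.3%), 23.9 and 30.8 in C24B and 32.96 to 38.9 in the lines (adjusted p = 0.0974, edgeR). The pseudogene AT1G35115 kept 56.6% in the hybrid, the pseudogene AT5G26345 28.9% and the RNA gene AT5G34871 38.0%. AT5G25920, of unknown function, kept 60.1% (43.9 to 82.3%), and its call against C24 was lost without C24 replicate 2 or 3 or without C24 x Ler replicate 2 or 3 (adjusted p 0.0528 to 0.0631, edgeR). The coatomer gene AT2G34840 kept 42.1% and the NLR AT5G47260 60.7%.

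In Ler NahG, which the rule did not use, the members stayed nearly unread. At most 3 reads over the 3 libraries were counted for 161 of 187 (86.1%), and 93 had none. Of all rows with at most 3 Ler reads, whether read in C24 or not, 96.6% also had at most 3 in Ler NahG. The members were all read in C24, so the shares are of unlike sets. Only 2 members had more than 10 reads: AT5G38030, a MATE-family efflux carrier, with 24, and SADHU3-2 with 13. AT5G38030 stood at 0.0412, 0.733 and 0.296 CPM in Ler NahG, 0.0447, 0 and 0.0794 in Ler, and 0.981, 1.29 and 0.755 in C24, so replicate 2 carried most of its reads. The 26 members above 3 reads became 10 to 16 when 1 Ler NahG library was left out. No fold is given, since Ler was at or under the limit by choice.

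The promoters printed above stand within wider shares. TTGAC on either strand lay in the 250-base window of 44.9% of 27444 protein-coding genes. It lay in 27 of 37 (73.0%) protein-coding members lower in both lines together and in 32 of 69 (46.4%) of those with no call. The TGA-factor core TGACG lay in 18.6%, 16.2% and 13.0% of the same sets. The motifs and sets were chosen after the calls were seen, the sequence is that of the reference accession, and a match is a description with no test.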

How the data were processed

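Counts of reads per gene were deposited by the authors as whole numbers for 37336 gene rows in 18 libraries, in 1 table. STAR 2.5.3, DESeq2 and the build TAIR10 are named in the submitters' processing notes; settings and strand are not given in the sources used here. The hybrid's columns carry an abbreviation that was matched to the only group named for both accessions. Rows outside genes (5), which include rows for multimapping and for ambiguous reads, were kept out of all totals. Names, types and promoters came from RefSeq's TAIR10.1 annotation, which held 37051 rows and 186 members.

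The 12 first-stage and 6 later libraries were fitted apart with edgeR 4.0.16 in R 4.3.3 (filterByExpr by group, TMM, quasi-likelihood F test, Benjamini-Hochberg over all genes, called under 0.05), and every adjusted p is from that test unless DESeq2 1.42.0 is named. SE was the log2 difference over the square root of F. Percentages are ratios of mean TMM-scaled CPM without a filter; intervals are 95%, unadjusted. Floors are 3 counts per group, and ratios with 1 to 3 reads carry an exact counting interval, which covers counting error only. The p-values cover the spread between pools of plants.

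The members and lists were chosen with earlier results of these data known. Named by rule were the 10 members with most C24 reads, the 5 highest and 5 lowest hybrid percentages above 200 C24 reads, the 10 with most Ler NahG reads, the 5 largest non-overlapping changes per line and direction, members in runs, and those at the limits. Others were picked after their values were seen. Product keywords set the classes, and the class of secreted cysteine-rich peptides is not described, because 3 of its 4 members were receptor kinases. Other scalings, filters, tools and left-out libraries were tried. The result of 1 member is not reported here.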

Additional observations from a re-analysis of the deposited data

How the results depend on the processing

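The count of members lower in the hybrid was 122 to 152 with 1 library left out, and the median hybrid level 29.1 to 33.4%. That median was 28.6% with library totals in place of TMM (which moves the median log2 difference of all genes by -0.23), 42.3% for members with at least 200 C24 reads and 38.4% for those with 0 Ler reads. The lowered members' hybrid median was 4.67 to 5.92% with 1 library left out, 4.48% with library totals, 5.78% with DESeq2 calls and 9.99% against C24B. For members with no call it was 41.5 to 46.2%, 37.3% and, against C24B, 48.2%. Members lower ranged from 10 to 38 in line 2, 10 to 45 in line 3 and 31 to 48 in both together with 1 library left out. Members higher ranged from 0 to 7, 0 to 12 and 0 to 9. The higher counts also moved with the tool and filter: in line 2 to 2 by DESeq2, 2 without the low-count filter and 0 with only the compared groups fitted; in line 3 to 7 and 0 under the last pair; in both to 4 by DESeq2 and 5 without the filter. Line 3 was above line 2 in 1 member with only those groups fitted, and in 0 to 1 with a library left out. Members over 3 reads in Ler NahG were 10 to 16 with a library left out, 94 over 0 reads and 2 over 10. The ratio of C24B to C24 was 0.764 to 0.819 with a library left out and 0.760 with library totals. The cause of each shift was not tested.

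Replicate numbers were not taken as pairs. Same-numbered libraries correlated at -0.185 to 0.473 in the first stage (4 of 18 pairs over 0.1) and 0.0241 to 0.128 in the later (4 of 6). With only 2 libraries a group, the later values cannot decide whether the numbers pair the samples. With the replicate number as a block, 139 members were lower in the hybrid, at a median of 34.2%, 34 lower and 3 higher in line 2, 40 and 6 in line 3, and 47 and 5 in both together. Members under about 3 reads a group cannot show a fold at this depth.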
